A study of Mus musculus with 2 samples.

Results

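The 8 genes described here, Plvap, Cav1, Cav2, Cavin1, Cavin2, Cavin3, Ehd2 and Ehd4, encode the fenestral diaphragm protein and the coat and neck proteins of caveolae. They were taken by gene symbol from the 31053 gene rows of the count tables, and all 8 were measured in both libraries and passed the filter on low counts. The data were 2 droplet-based single-cell RNA libraries (Chromium 3', v3 chemistry) of ileal endothelium; the mice were C57Bl/6 males, wild type and 8 weeks old. Cells without EpCAM and CD45 and with CD31 had been sorted into PDPN-positive lymphatic and PDPN-negative blood endothelial cells; no cell in the tables is tied to a gate of that sort. The labels describe both libraries alike, so they are 1 group (n = 2), without saying whether they came from separate mice. With the library as a block, p-values measure how differences between classes vary between these libraries. That spread may be technical and is largely pooled over genes. No treatment was compared: every comparison is between classes of cells of the same 2 libraries.

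Plvap forms the diaphragms that span the fenestrae of capillaries in intestine, kidney and endocrine organs, and also the diaphragms of caveolae and transendothelial channels. Caveolae are flask-shaped pits of the plasma membrane. Cav1, with its partner Cav2, makes up the membrane-embedded part of the pit, the cavins (Cavin1, Cavin2 and Cavin3) coat it from the cytoplasm, and the ATPases of the EHD family sit at the neck and hold the pit at the surface.

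Classes were made from raw counts of unique molecular identifiers (UMIs) of genes other than these 8. Lymphatic-gated cells had at least 5 UMIs of Mmrn1, Lyve1 and Prox1 together. Blood-gated cells had at least 3 UMIs of Flt1, Cd34 and Esam. Of these, venous-gated cells had at least 4 UMIs of Ackr1, Selp and Madcam1 and arterial-gated cells at least 3 of Sema3g, Fbln5 and Stmn2. The other blood-gated cells are called capillary and were split by Gpihbp1, which anchors lipoprotein lipase on capillaries, and Aqp1, a water channel: 0 UMIs of both (zero-gated capillary) or at least 3 together (high-gated capillary). Libraries 1 and 2 held 76 and 975 lymphatic-gated, 63 and 261 venous-gated, 147 and 883 arterial-gated, 243 and 1536 zero-gated capillary and 271 and 1322 high-gated capillary cells. A further 89 and 634 capillary cells with 1 or 2 UMIs of Gpihbp1 and Aqp1 lay between the kinds and were in neither. Levels are CPM, a gene's UMIs summed over the class and scaled to a common class total, library 1 before library 2.

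The libraries held 1026 and 6302 barcodes, of which they shared 2, and 3806199 and 26645476 UMIs. After filtering, 974 and 6062 cells were left. Median UMIs per cell were 2894 and 2153 in lymphatic-gated cells and 3192 to 5435 in the blood classes, and median mitochondrial shares were 3.34 and 5.33% against 1.98 to 4.08%. Summed levels of marker genes outside the gates were highest in the class of their name, although single markers were not always so: the venous marker Nr2f2 stood at 1040 and 1008 CPM in lymphatic-gated and 499.6 and 470.2 CPM in venous-gated cells. The 5 lymphatic markers summed to 12288 and 10619 CPM in lymphatic-gated cells and to at most 127 CPM in any blood class. The 6 venous markers summed to 4724 and 4257 CPM in venous-gated cells and to at most 1893 CPM elsewhere, the 7 arterial markers to 2138 and 2139 CPM in arterial-gated cells and to at most 1071 CPM elsewhere. The 5 capillary markers summed to 3539 and 3662 CPM in zero-gated and 6317 and 6471 CPM in high-gated capillary cells, and to at most 3144 CPM elsewhere. Of other cell types, the 8 mural markers summed to 74.9 and 232 CPM in zero-gated and 187 and 91.5 CPM in high-gated capillary cells. In arterial-gated cells they summed to 175 and 293 CPM, and the 7 fibroblast markers to 17.8 and 433 CPM. In venous-gated cells the sums were 0 and 192 CPM for mural and 3.20 and 138 CPM for fibroblast markers. The 7 fibroblast markers summed to 652 CPM in zero-gated against 47.8 CPM in high-gated capillary cells (library 1: 23.1 against 59.8 CPM), and the 4 haemoglobin genes to 58.4 against 1877 CPM. Without the cells that also passed a mural, fibroblast or leukocyte gate or held over 1% haemoglobin UMIs, the sums in library 2 were 7.36 against 35.2 CPM for mural, 37.6 against 40.7 CPM for fibroblast and 2.40 against 2.92 CPM for haemoglobin genes.

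**Figure D1:**
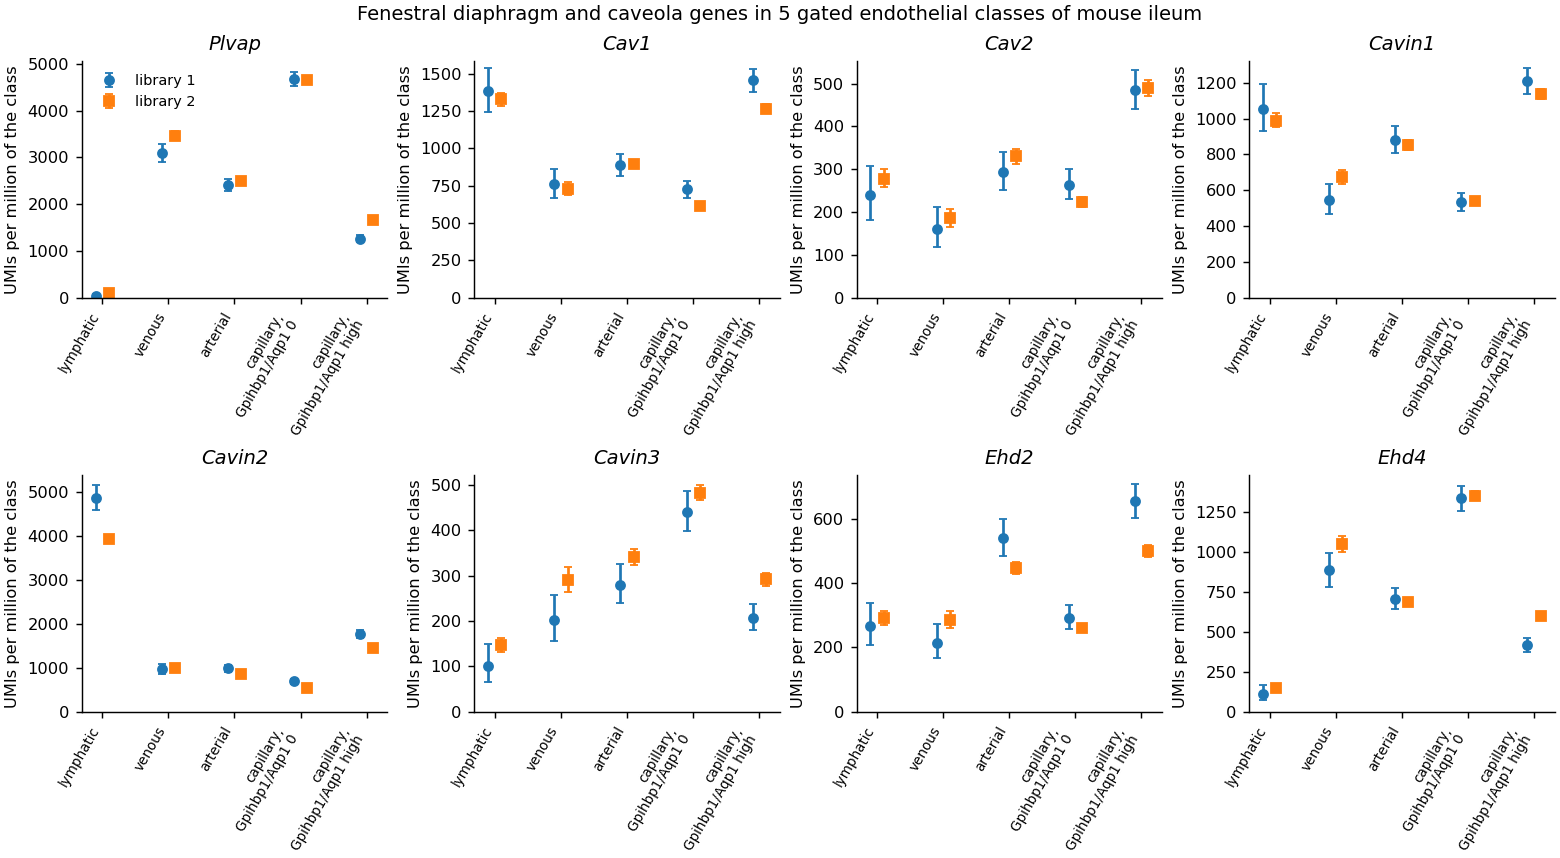
Level of each gene (vertical axis, CPM, from 0) in the 5 gated classes; circles are library 1, squares library 2, and bars are 95% Poisson intervals, which cover counting error only. Plvap, Ehd4 and Cavin3 stand highest in zero-gated capillary cells and lowest in lymphatic-gated cells, Cavin2 stands highest in lymphatic-gated cells, and the means of Cav1, Cav2, Cavin1 and Ehd2 are highest in high-gated capillary cells.

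Plvap, the diaphragm protein, had a different level in every class. It stood at 40.5 and 86.8 CPM in lymphatic-gated cells, 3087 and 3465 CPM in venous-gated cells, 2400.0 and 2484 CPM in arterial-gated cells, 4673 and 4649 CPM in zero-gated capillary cells and 1256 and 1655 CPM in high-gated capillary cells. The libraries of no 2 classes overlapped, and all 10 pairs of classes differed in edgeR's quasi-likelihood test at a false discovery rate (FDR) of 0.05. The mean in zero-gated capillary cells was 73.2 times that in lymphatic-gated cells. Cell by cell, few venous-gated and zero-gated capillary cells were at 0, whereas arterial-gated and high-gated capillary cells included many with and many without Plvap. With every cell thinned to 1500 UMIs, 95.2 and 90.1% of lymphatic-gated cells, 3.28 and 2.33% of venous-gated cells, 28.8 and 24.7% of arterial-gated cells, 3.35 and 2.46% of zero-gated capillary cells and 65.1 and 55.4% of high-gated capillary cells held 0 Plvap UMIs. More than 10 UMIs were found in 13.9 and 16.0% of zero-gated capillary cells and still in 3.14 and 3.47% of high-gated ones. Thinning left out 13 and 260 lymphatic-gated, 34 and 71 zero-gated capillary and 16 and 55 high-gated capillary cells with fewer UMIs; before thinning, 97.9 and 97.9% of zero-gated and 40.2 and 52.3% of high-gated capillary cells held a Plvap UMI. For comparison, in 47 leukocyte-gated cells of library 2 (median 4750.0 UMIs) 6.67% of the thinned cells held a Plvap UMI, against 4.76 and 9.93% of lymphatic-gated cells. Per class total, Plvap stood at 86.8 CPM in lymphatic-gated cells of library 2 (95% Poisson interval 75.7 to 99.2) and at 19.6 CPM in those leukocyte-gated cells (8.98 to 37.3). The part that free RNA has in these low values was not tested.

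**Figure D2:**
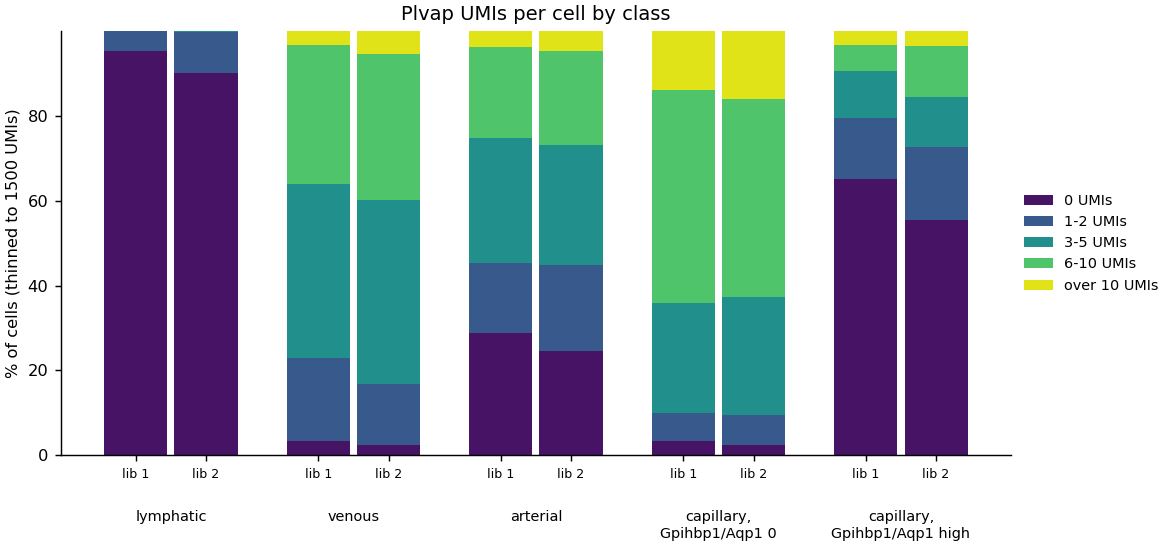
Share of cells (vertical axis, %) by number of Plvap UMIs, after thinning each cell to 1500 UMIs, for the 5 classes and both libraries. Cells with 0 UMIs make up 65.1 and 55.4% of high-gated capillary cells, against 3.35 and 2.46% of zero-gated ones.

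Ehd4, an EHD ATPase found on endosomes and at caveolae, ran in the same order of classes as Plvap. It stood at 113 and 146 CPM in lymphatic-gated, 884 and 1049 CPM in venous-gated, 706 and 688 CPM in arterial-gated, 1335 and 1351 CPM in zero-gated capillary and 416 and 599.7 CPM in high-gated capillary cells. Again the libraries of no 2 classes overlapped and all 10 pairs passed the test, with a 10.3-fold range between class means. Cavin3, the cavin that lines the coat together with Cavin1, ranged 3.73-fold and also had its extremes in zero-gated capillary cells (441 and 483 CPM) and lymphatic-gated cells (101 and 147 CPM). Its levels of 202 and 291 CPM in venous-gated, 280.2 and 341 CPM in arterial-gated and 207 and 292 CPM in high-gated capillary cells overlapped between libraries, and 8 of its 10 pairs passed.

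Cavin2, a cavin that helps to shape the coat, ran the other way. It stood at 4871 and 3923 CPM in lymphatic-gated, 974 and 988 CPM in venous-gated, 983 and 847 CPM in arterial-gated, 689 and 534 CPM in zero-gated capillary and 1772 and 1453 CPM in high-gated capillary cells. Lymphatic-gated cells were the highest and zero-gated capillary cells the lowest, 7.19-fold apart in their means; 9 of 10 pairs passed, and venous and arterial levels overlapped.

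Cav1, Cav2, Cavin1 and Ehd2 had their highest means in high-gated capillary cells and ranged between 2.04-fold and 2.83-fold over the classes. Cav1, without which most cells form no caveolae, stood at 1384 and 1329 CPM in lymphatic-gated, 759 and 731 CPM in venous-gated, 886 and 894 CPM in arterial-gated, 725 and 611 CPM in zero-gated capillary and 1456 and 1265 CPM in high-gated capillary cells. Lymphatic-gated and high-gated capillary cells overlapped, neither arterial and venous nor venous and zero-gated cells differed past the threshold, and 7 of 10 pairs passed. Cavin1, the cavin that caveola formation needs, had nearly the same outline, with 1056 and 989.6 CPM in lymphatic-gated, 544 and 672 CPM in venous-gated, 879 and 852 CPM in arterial-gated, 533 and 541 CPM in zero-gated capillary and 1209 and 1138 CPM in high-gated capillary cells, and 8 of 10 pairs passing; lymphatic-gated cells did not pass against the high-gated capillary or the arterial-gated cells next to them in order. Cav2 and Ehd2 differed from that outline in lymphatic-gated cells, where they were not near their highest level. Cav2 stood at 239 and 278 CPM in lymphatic-gated, 160.1 and 185 CPM in venous-gated, 293 and 329.8 CPM in arterial-gated, 264 and 223 CPM in zero-gated capillary and 485 and 489 CPM in high-gated capillary cells. Ehd2, the EHD ATPase of the caveolar neck, stood at 267 and 290.4 CPM in lymphatic-gated, 215 and 286 CPM in venous-gated, 541 and 447 CPM in arterial-gated, 293 and 260.2 CPM in zero-gated capillary and 656 and 499.9 CPM in high-gated capillary cells. For Ehd2, arterial and high-gated capillary cells overlapped, as did lymphatic, venous and zero-gated capillary cells, and 6 of 10 pairs passed. For Cav2, 7 passed, and zero-gated capillary cells did not pass against lymphatic-gated or venous-gated cells.

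Between the capillary kinds every one of the 8 genes differed, and they split into opposite directions. In zero-gated capillary cells 3 of 8 were higher (Plvap, Ehd4 and Cavin3) and 5 of 8 lower (Cav1, Cav2, Cavin1, Cavin2 and Ehd2) than in high-gated ones. Of all 10348 genes tested, 9.95% were called higher and 7.97% lower. Plvap was higher by 1.77 ± 0.11 on the log2 scale (SE; adjusted p = 6.32e-16, edgeR), Ehd4 by 1.48 ± 0.11 (adjusted p = 1.01e-13) and Cavin3 by 0.96 ± 0.11 (adjusted p = 9.64e-09). Cavin2 was lower, at log2 -1.32 ± 0.11 (adjusted p = 3.21e-13, edgeR), followed by Cavin1 at -1.04 ± 0.11 (adjusted p = 2.9e-10). Ehd2 at -0.96 ± 0.13 (adjusted p = 2.72e-07), Cav2 at -0.95 ± 0.11 (adjusted p = 1.46e-08) and Cav1 at -0.94 ± 0.10 (adjusted p = 1.32e-09) were lower by nearly equal amounts. Each gene moved the same way in both libraries, and for no gene did the libraries of the kinds overlap. Median UMIs per cell were 3394 and 4001 in zero-gated and 3192 and 3618 in high-gated cells. Where cells that pass 2 gates were kept in the classes, Plvap kept its size (log2 1.78) but had an adjusted p of 0.123 in edgeR. Such cells joined only the lymphatic-gated and venous-gated classes, so the capillary kinds themselves held the same cells. The fit is shared by all classes. Without scaling factors the split of all calls was 783 higher and 1090 lower in place of 1030 and 825, and no member changed direction. The other 7 passed where such cells were kept, and all 8 passed in every other alternative that gave a test, including the fit without cells of the mural, fibroblast or leukocyte gate.

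**Figure D3:**
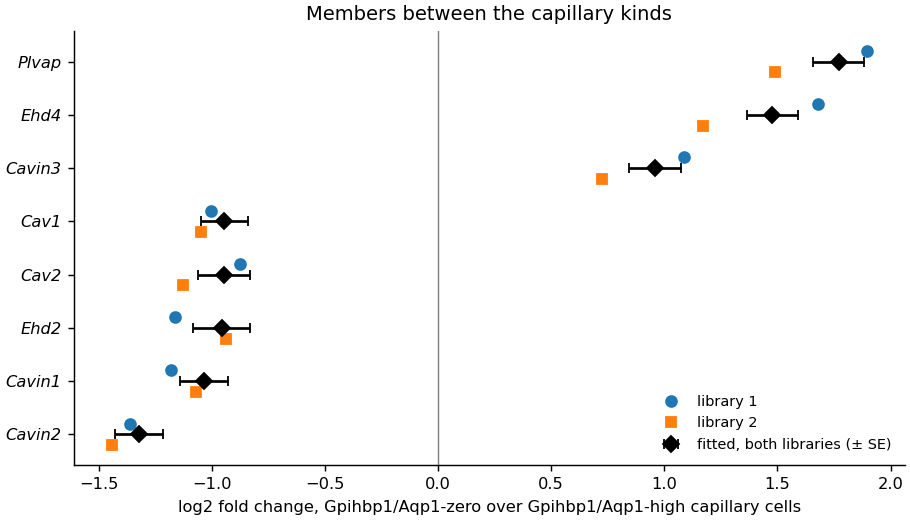
Log2 fold change of each gene, zero-gated over high-gated capillary cells (horizontal axis). Diamonds are the fitted values with their SE, after scaling by the trimmed mean of M values; circles and squares are libraries 1 and 2 from CPM without that scaling, so a fitted value may lie outside them. Plvap, Ehd4 and Cavin3 lie right of 0 and the other 5 genes left of it.

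The opposite directions were graded along the gate genes. Plvap stood at 4673 and 4649 CPM in capillary cells with 0 UMIs of Gpihbp1 and Aqp1, 4568 and 4044 CPM with 1 UMI, 3485 and 3482 CPM with 2, 3077 and 3378 CPM with 3 to 5, 2235 and 2192 CPM with 6 to 10 and 505 and 777 CPM with over 10. With cells thinned to 1500 UMIs before binning, Plvap stood at 4507 and 4493 CPM with 0 UMIs, 3474 and 3604 CPM with 1, 2100.0 and 2377 CPM with 2, 1293 and 1655 CPM with 3 to 5 and 367 and 429 CPM with over 5. The bins beside the gate were thus close on raw UMIs and farther apart on thinned ones, where most of the fall lay at or below 5 UMIs. Thinning also removes UMIs of the gate genes, so a bin of the same number holds different cells. The raw and thinned bins are therefore not like for like. Ehd4 stepped down less evenly, with 1335 and 1351 CPM at 0 UMIs, 632 and 945 CPM at 3 to 5 and 287 and 415 CPM at over 10. Cavin3 stood at 441 and 483 CPM at 0 UMIs and 159.7 and 237 CPM at over 10.

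The other 5 genes were higher with 3 to 5 UMIs than with 0 to 2 UMIs in both libraries. Cavin2 stood at 689 and 534 CPM at 0 UMIs, 593 and 529 CPM at 2 UMIs, 1161 and 825 CPM at 3 to 5 and 1986 and 1778 CPM at over 10. Cav1 stood at 725 and 611 CPM at 0 UMIs and 1636 and 1477 CPM at over 10, and Cavin1 at 533 and 541 against 1400.1 and 1366 CPM. Cav2 ended at 544 and 588 CPM and Ehd2 at 747 and 579 CPM. After thinning, the ends kept their order for all 8, with Cavin2 at 705 and 532 CPM with 0 UMIs and 2097 and 1856 CPM with over 5. The bin of 2 UMIs in library 1 held 27 cells, or 20 after thinning.

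**Figure D4:**
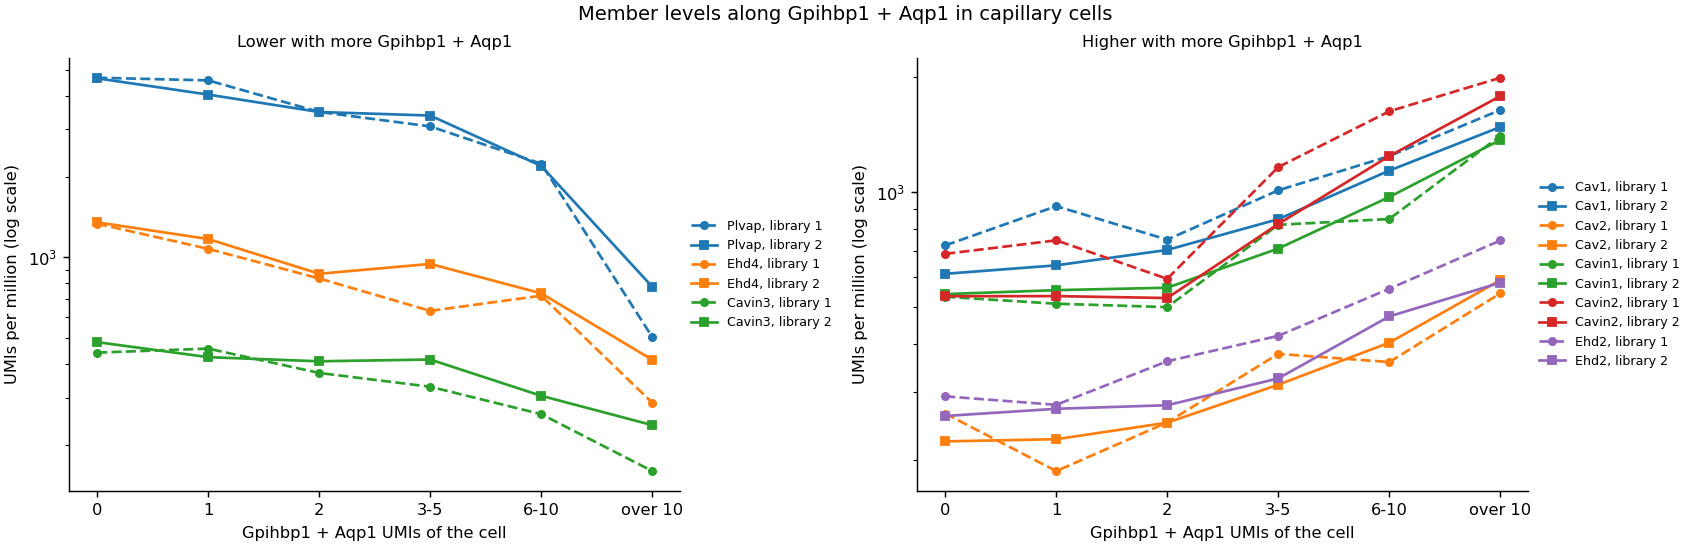
Level of each gene (vertical axis, CPM, log scale) in capillary cells by their number of Gpihbp1 and Aqp1 UMIs (horizontal axis); dashed lines with circles are library 1, solid lines with squares library 2. Plvap, Ehd4 and Cavin3 run downward (left panel) and Cav1, Cav2, Cavin1, Cavin2 and Ehd2 upward (right panel).

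Cells carrying Gpihbp1 alone and Aqp1 alone had different levels, which were not tested. With at least 3 Gpihbp1 and 0 Aqp1 UMIs (35 and 239 cells), Plvap stood at 2601 and 2486 CPM, Cavin2 at 1565 and 1239 CPM, Cav2 at 466 and 396 CPM and Ehd4 at 899 and 981 CPM. With at least 3 Aqp1 and 0 Gpihbp1 UMIs (40 and 229 cells), Plvap stood at 3619 and 3830 CPM, Cavin2 at 956 and 837 CPM, Cav2 at 223 and 278 CPM and Ehd4 at 757 and 893 CPM. For Plvap, Cav1, Cav2, Cavin1, Cavin2 and Ehd2 the cells with Aqp1 alone were the nearer to zero-gated capillary cells in both libraries. For Ehd4 the cells with Gpihbp1 alone were the nearer in both libraries, and Cavin3 differed between libraries, at 265 and 406 CPM with Gpihbp1 alone and 292 and 352 CPM with Aqp1 alone.

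From cell to cell, over 544 and 3339 capillary cells thinned to 1500 UMIs, Plvap ran with Ehd4 (Spearman's rho 0.46 and 0.45) and against Cavin2 (rho -0.46 and -0.32), Cavin1 (rho -0.41 and -0.29) and Cav1 (rho -0.37 and -0.32). Cells of 1 library share their preparation and are no replicates, so these values carry no test. Inside the zero-gated kind the rho of Plvap with the other 7 genes lay between -0.07 and 0.19 in both libraries, with Ehd4 at 0.12 and 0.19. Inside the high-gated kind the rho of Plvap with Ehd4 was 0.38 and 0.41, and with Cav1 it was -0.44 and -0.37. There Plvap had a rho of -0.37 and -0.28 with Cavin1, -0.31 and -0.26 with Cavin2 and -0.27 and -0.24 with Ehd2. With Cav2 it was -0.17 and -0.18, and with Cavin3 0.08 and 0.19.

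In lymphatic-gated cells 3 of 8 genes were higher than the mean of the 4 blood classes, and 4 of 8 lower. Among all genes, 25% were called higher and 26.7% lower, so a count of 7 in 8 stands against a large background. Without scaling factors the median of all genes was log2 0.12 in place of 0.00, the split of all calls was 3092 higher and 2403 lower in place of 2584 and 2763, and no called member changed direction. Plvap was lower by far, at log2 -5.26 ± 0.15 (adjusted p = 1.16e-28, edgeR), followed by Ehd4 at -2.73 ± 0.13 (adjusted p = 1.87e-21), Cavin3 at -1.37 ± 0.12 (adjusted p = 7.65e-13) and Ehd2 at -0.49 ± 0.12 (adjusted p = 0.000615). Cavin2 was higher at log2 2.04 ± 0.07 (adjusted p = 1.74e-25, edgeR), as were Cav1 at 0.50 ± 0.08 (adjusted p = 2.4e-06) and Cavin1 at 0.28 ± 0.09 (adjusted p = 0.00697). Cav2, at log2 -0.20 ± 0.11, did not pass (adjusted p = 0.113, edgeR). Lymphatic-gated cells thus held Cav1, Cavin1 and Cavin2 at or above the mean of the 4 blood classes, beside little Plvap, Ehd4 and Cavin3. Against high-gated capillary cells alone, Cavin1 was lower in both libraries (1056 and 989.6 against 1209 and 1138 CPM) but did not pass. The call of Cavin1 against the blood mean ended in 5 alternatives, with adjusted p-values of 0.0569 to 0.102 in edgeR, among them both stricter filters on cells. Lymphatic-gated cells were the shallower and had the higher mitochondrial share, whose part in the result was not tested.

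In venous-gated cells 2 of 8 genes were higher and 3 of 8 lower than in zero-gated capillary cells, where 11.7% and 9.63% of all genes were called. Cavin2 was higher at log2 0.84 ± 0.11 (adjusted p = 6.65e-08, edgeR) and Cavin1 at 0.33 ± 0.11 (adjusted p = 0.0312). Cavin3 at log2 -0.75 ± 0.13 (adjusted p = 1.19e-05), Plvap at -0.40 ± 0.11 (adjusted p = 0.00683) and Ehd4 at -0.35 ± 0.12 (adjusted p = 0.023) were lower in edgeR. Cav1 (log2 0.29 ± 0.11), Cav2 (-0.30 ± 0.14) and Ehd2 (0.09 ± 0.14) did not pass. Here 2 of 8 passed with DESeq2 and 1 of 8 without the library block, Plvap did not pass in 4 alternatives (adjusted p of 0.198 to 0.739), and Ehd4 in 6. Without scaling factors, which moved the median of all genes to log2 -0.12, the split of all calls was 994 higher and 1339 lower in place of 1210 and 997, the call of Cavin1 ended (adjusted p = 0.19), and Ehd2 stood at -0.028.

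Arterial-gated cells had 3 of 8 genes higher and 4 of 8 lower than high-gated capillary cells, where 7.85% and 5.4% of all genes were called; the high-gated cells are those of the comparison between the capillary kinds. Without scaling factors the split of all calls was 682 higher and 675 lower in place of 812 and 559. Plvap was higher at log2 0.81 ± 0.11 (adjusted p = 3.94e-07, edgeR), Ehd4 at 0.49 ± 0.12 (adjusted p = 0.00177) and Cavin3 at 0.36 ± 0.12 (adjusted p = 0.0347), although the libraries of the classes overlapped for Cavin3. Cavin2 was lower at log2 -0.75 ± 0.11 (adjusted p = 4.71e-07, edgeR), as were Cav2 at -0.56 ± 0.11 (adjusted p = 0.000277), Cav1 at -0.54 ± 0.10 (adjusted p = 0.00013) and Cavin1 at -0.38 ± 0.11 (adjusted p = 0.0106). Ehd2, at log2 -0.16 ± 0.12, did not pass. Without the library block 3 of 8 passed. The call of Plvap ended where cells passing 2 gates were kept (adjusted p = 0.544, edgeR). Neither class gained cells there, and the fit is shared by all classes. The call of Cavin3 ended in 6 alternatives, among them the one without cells of the mural, fibroblast or leukocyte gate (adjusted p = 0.0712, edgeR).

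Against arterial-gated cells, venous-gated cells had more Plvap and Ehd4 and less Cav2, Ehd2 and Cavin1, which is 2 of 8 higher and 3 of 8 lower beside 11.4% and 10% of all genes. Ehd4 was higher at log2 0.63 ± 0.12 (adjusted p = 6.52e-05, edgeR) and Plvap at 0.56 ± 0.11 (adjusted p = 0.000136). Ehd2 was lower at log2 -0.71 ± 0.14 (adjusted p = 0.000219, edgeR), Cav2 at -0.69 ± 0.14 (adjusted p = 0.000166) and Cavin1 at -0.32 ± 0.11 (adjusted p = 0.0359), a call that ended in 7 alternatives. The remaining 3, Cavin2 (log2 0.27 ± 0.11), Cav1 (-0.12 ± 0.11) and Cavin3 (-0.15 ± 0.13), did not pass. With cells passing 2 gates kept, or without the library block, 3 of 8 passed, and the call of Plvap ended in both (adjusted p of 0.55 and 0.102, edgeR). Without scaling factors, where the median of all genes was -0.17, the split was 903 higher and 1486 lower in place of 1179 and 1038.

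Within the high-gated kind, cells with at least 3 UMIs of Cd300lg and Aqp7 (121 and 642 cells) were set against cells with 0 (61 and 268). Both are capillary genes, Aqp7 a channel for water and glycerol. Of the 8 genes 5 were higher and 2 lower in the positive cells, with 2.66% and 5.66% of 8950 genes called. Plvap stood at 905 and 1145 CPM in positive and 2026 and 2720.4 CPM in zero cells, log2 -1.29 ± 0.10 (adjusted p = 1.12e-14, edgeR). Cavin2 was higher at 0.69 ± 0.10 (2006 and 1729 against 1302 and 942 CPM), Cav2 at 0.63 ± 0.13, Cavin1 at 0.51 ± 0.11, Ehd2 at 0.48 ± 0.12 and Cav1 at 0.41 ± 0.11, with adjusted p-values of 1.25e-06 to 0.00665. In this split Plvap stood opposite to these 5 genes inside the high-gated kind, where without the library block only Plvap and Cavin2 passed. The parts were not matched for UMIs of Gpihbp1 and Aqp1, along which these genes also changed within that kind. Cavin3 was lower at log2 -0.42 ± 0.14 (adjusted p = 0.048, edgeR), a call that ended in 6 alternatives, and Ehd4, at -0.58 ± 0.22, did not pass (adjusted p = 0.199). Without scaling factors the split of all calls was 306 higher and 378 lower in place of 238 and 507.

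Arterial-gated cells with at least 3 UMIs of Fn1, the gene of fibronectin, and S100a4, a calcium-binding protein (29 and 224 cells), had less Plvap than those with 0 (81 and 414 cells). Plvap stood at 1820 and 1720.1 CPM in positive and 2572 and 3093 CPM in zero cells, log2 -0.67 ± 0.10 (adjusted p = 1.77e-06, edgeR). Cavin2 was lower too, at log2 -0.37 ± 0.11 (adjusted p = 0.0243), a call that ended in 5 alternatives, 0.0513 without cells of the mural, fibroblast or leukocyte gate. None of the 8 was higher; 3.85% of genes were called higher and 3.24% lower.

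Zero-gated capillary cells with at least 2 UMIs of Esm1, a secreted proteoglycan induced by VEGF (44 and 369 cells), differed from those with 0 (155 and 883 cells) in 0 of 8 genes at an FDR of 0.05 in edgeR, where 1.2% of all genes passed. At an unadjusted p under 0.05 there were 3 of 8 (Ehd4, Cavin3 and Plvap), beside 642 of all 8950 genes, and DESeq2 called 1 of 8, Ehd4, among 24 genes in all. Ehd4 stood at 1982 and 1886 CPM in positive and 1021 and 1041 CPM in zero cells, log2 0.90 ± 0.20 (adjusted p = 0.0991, edgeR); from CPM alone the log2 value was 0.96 in library 1 and 0.86 in library 2. Over the alternatives its log2 value lay between 0.85 and 1.04 and its adjusted p between 3.56e-14 and 0.319, and it passed in 5 of 13. Plvap stood at 5052 and 5036 against 4410.1 and 4351 CPM, log2 0.20 ± 0.09, and did not pass.

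**Figure D5:**
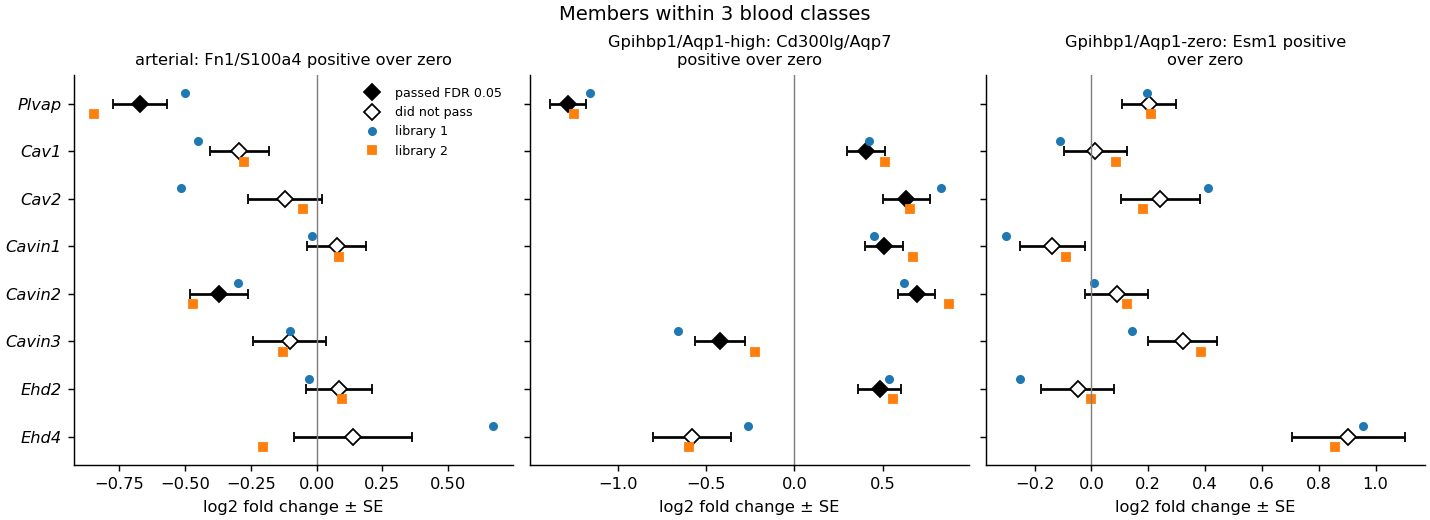
Log2 fold change (horizontal axis) of each gene between cells positive for and cells without the named genes, inside arterial-gated, high-gated capillary and zero-gated capillary cells; filled diamonds passed an FDR of 0.05 and open ones did not, bars are SE, circles and squares are libraries 1 and 2 from CPM. Plvap lies at -0.67 and -1.29 in the left and middle panels, and Ehd4 at 0.90 in the right panel.

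Over the 10 sums of classes and libraries, on log2 CPM centred within each library, Plvap ran with Ehd4 (Pearson r = 0.98) and Cavin3 (r = 0.93) and against Cavin2 (r = -0.95), and Cav1 ran with Cavin1 (r = 0.92) and Cav2 with Ehd2 (r = 0.86). Plvap and Cav2 had r = 0.02. These 10 points are 5 classes of 2 libraries and not independent, and the very low lymphatic level of Plvap weighs on its values. Of 4459 genes compared, the 5 most like Plvap were Tmem176a (r = 0.995), Rbbp6 (0.993), Pcf11 (0.992), Sfpq (0.992) and Lifr (0.991). The 3 most like Ehd4 were Atf4 (0.994), Sfpq (0.989) and Il4ra (0.989), and the 3 most like Cavin3 were Afap1 (0.988), Lcp1 (0.986) and Sub1 (0.985). Tspan6 was among the 3 nearest for both Cav1 (0.985) and Cavin1 (0.955), and Aqp7 for Ehd2 (0.972). Nearest to Cav2 was Tcf4 (0.970), and nearest to Cavin2 was Bst2 (0.987).

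Cav1 and Cav2 lie next to each other on chromosome 6 of GRCm38, both on the + strand, Cav2 at chr6:17281185-17289115 and Cav1 at chr6:17306335-17341452, 17220 bases from the end of Cav2 to the start of Cav1. Plvap lies at chr8:71497765-71511752 (- strand), Ehd2 at chr7:15946958-15967567 (- strand) and Ehd4 at chr2:120089175-120154606 (- strand). RefSeq promoter sequences (GRCm38.p6, 250 bases before to 50 after the start) matched 6 of the 8 genes, all except Plvap and Cavin3. Shown are those of the neighbours Cav1 and Cav2, which shared a direction between the capillary kinds, and of the paralogs Ehd2 and Ehd4, which went opposite ways. Each is written 5′ to 3′ on the gene's strand, with GGAAG, a core of ETS factor sites, or its complement CTTCC in capitals.
Cav1 (chr6:17306085-17306384): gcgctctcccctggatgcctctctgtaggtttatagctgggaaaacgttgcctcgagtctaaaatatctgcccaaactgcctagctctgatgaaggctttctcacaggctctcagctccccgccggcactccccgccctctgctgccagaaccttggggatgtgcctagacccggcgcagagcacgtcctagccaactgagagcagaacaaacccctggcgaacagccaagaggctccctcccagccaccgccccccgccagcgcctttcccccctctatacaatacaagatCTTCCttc
Cav2 (chr6:17280935-17281234): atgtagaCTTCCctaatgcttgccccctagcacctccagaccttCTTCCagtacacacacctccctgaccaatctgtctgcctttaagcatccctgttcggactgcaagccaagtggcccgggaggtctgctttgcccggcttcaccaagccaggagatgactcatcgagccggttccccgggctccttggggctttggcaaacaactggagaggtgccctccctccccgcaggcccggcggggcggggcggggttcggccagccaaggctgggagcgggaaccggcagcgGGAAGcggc
Ehd2 (chr7:15967486-15967785): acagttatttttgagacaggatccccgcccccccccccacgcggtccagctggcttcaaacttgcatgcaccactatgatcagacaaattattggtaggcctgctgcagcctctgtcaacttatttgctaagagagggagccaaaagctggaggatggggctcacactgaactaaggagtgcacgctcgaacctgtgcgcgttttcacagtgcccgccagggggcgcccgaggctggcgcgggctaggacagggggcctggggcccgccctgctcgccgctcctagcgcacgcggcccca
Ehd4 (chr2:120154526-120154825): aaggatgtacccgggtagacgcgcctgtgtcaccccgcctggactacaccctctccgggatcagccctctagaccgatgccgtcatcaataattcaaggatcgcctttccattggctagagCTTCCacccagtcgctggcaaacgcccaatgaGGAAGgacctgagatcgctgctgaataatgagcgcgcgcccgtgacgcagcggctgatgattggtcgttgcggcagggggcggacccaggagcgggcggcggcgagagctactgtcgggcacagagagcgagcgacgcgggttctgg
The core was found 1 time for Cav1, 3 times for Cav2, 0 times for Ehd2 and 2 times for Ehd4, counting both strands, and it occurs in 71.4% of the 32851 RefSeq promoters of this length. The letters that follow were counted on both strands too. TATAAA was found 1 time for Cav1, only as its complement TTTATA, and 0 times for the other 3 (13.6% of promoters hold it). CCAAT was found 0 times for Cav1, 1 time for Cav2 and Ehd2 each and 3 times for Ehd4 (37.4%). GGGCGG was found 2 times in each of the 4 (35.7%). Such matches describe the letters only.

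Of the other caveola coat and neck genes, 9 of 13 were tested, and between the capillary kinds 1 was higher and 2 lower in zero-gated cells; the median log2 value was -0.14 over the list and 0.00 over all genes, of which 17.9% passed. The EHD family again went both ways. Ehd3, an EHD ATPase of endosomes, stood at 28.3 and 20.3 CPM in lymphatic-gated, 583 and 648 CPM in venous-gated, 38.9 and 69.9 CPM in arterial-gated, 166 and 212 CPM in zero-gated capillary and 42.7 and 56.5 CPM in high-gated capillary cells. It was higher in zero-gated than in high-gated cells at log2 2.01 ± 0.14 (adjusted p = 6.8e-15, edgeR). Ehd1, which acts in endocytic recycling, stood at 267 and 310 CPM in lymphatic-gated, 0 and 14.2 CPM in venous-gated, 74.5 and 83.3 CPM in arterial-gated, 3.46 and 5.89 CPM in zero-gated capillary and 83.3 and 105 CPM in high-gated capillary cells. It was the gene of this list with the lowest log2 value in zero-gated against high-gated cells, -4.08 ± 0.23 (adjusted p = 3.18e-18, edgeR), and Dnm3, a dynamin, was lower at -0.77 ± 0.14. Between the capillary kinds Ehd3 and Ehd4 were thus the higher and Ehd1 and Ehd2 the lower members of the family.

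Among genes of caveola residents and transcytosis, 13 of 14 were tested. In zero-gated capillary cells 3 were higher and 5 lower (median log2 0.15), beside 9.95% and 7.97% of all genes. Cd36, a fatty acid receptor, was lower (1249 and 1187 CPM in zero-gated against 3160 and 3099 CPM in high-gated cells, log2 -1.28 ± 0.10, adjusted p = 2.92e-13, edgeR). Fcgrt, the neonatal Fc receptor that carries antibodies across endothelium, was lower at -1.30 ± 0.13 and Insr, the insulin receptor, at -0.86 ± 0.15. Flotillins and the clathrin coat, the other routes of uptake at the surface, showed no call in edgeR: 0 of 10 passed, with log2 values from -0.42 (Flot2) to 0.39 (Flot1).

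Vegfa signalling induces fenestrae. Of 9 genes of the VEGF axis 4 were higher and 0 lower in zero-gated capillary cells, beside 9.95% and 7.97% of all genes. Among the higher were Esm1 (304 and 269 against 146 and 164 CPM, log2 0.92 ± 0.14, adjusted p = 2.7e-06, edgeR), Nrp1, a co-receptor (0.56 ± 0.12), and Nrp2 (0.41 ± 0.11). The main receptor Kdr, at 0.29 with an adjusted p of 0.117 in edgeR, did not pass. Vegfa, below the 50 CPM set for naming genes, stood at 49.6 and 37.2 CPM in zero-gated and 13.9 and 21.0 CPM in high-gated cells. Of 10 genes that mark the tight, diaphragm-poor endothelium of the brain, 5 were tested. In zero-gated cells 4 were lower and 1, Slc2a1, was higher, beside 7.97% and 9.95% of all genes. Slc2a1 stood at 72.6 and 77.8 CPM in zero-gated and 21.4 and 33.5 CPM in high-gated cells. Cldn5, the claudin of endothelial tight junctions, stood at 20.7 and 13.2 CPM in zero-gated and 1098.5 and 643 CPM in high-gated cells, log2 -5.63 ± 0.30 (adjusted p = 2.4e-06, edgeR). The transporters Abcg2 at -1.69 ± 0.12 and Abcb1a at -1.56 ± 0.11 were lower as well. Cldn5 stood higher in venous-gated cells, at 1889 and 1154 CPM, where Plvap stood at 3087 and 3465 CPM.

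In lymphatic-gated cells against the blood classes, 5 of 9 coat and neck genes were higher and 3 lower, 2 of 13 resident genes higher and 9 lower, 3 of 10 flotillin and clathrin genes higher and 2 lower, 5 of 9 VEGF genes higher and 4 lower, and 2 of 5 brain barrier genes higher and 3 lower, where 51.7% of all genes passed. The resident genes had a median of log2 -2.33, with Cd36 at 97.1 and 119.5 CPM in lymphatic-gated cells and 1710.2 and 1720.6 CPM in the mean of the blood classes.

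In venous-gated against zero-gated capillary cells, 3 of 9 coat and neck genes were higher and 0 lower, 5 of 13 resident genes higher and 3 lower, and 2 of 9 VEGF genes higher and 5 lower, beside 21.3% of all genes. Flotillins and the clathrin coat had 3 of 10 higher and 0 lower, and the brain barrier genes 3 of 5 higher and 0 lower. Insr stood at 391 and 345 CPM in venous-gated and 65.7 and 45.2 CPM in zero-gated capillary cells, log2 2.93 ± 0.15 (adjusted p = 1.67e-19, edgeR). In arterial-gated against high-gated capillary cells no coat and neck, flotillin or clathrin gene passed in edgeR, 6 of 13 resident genes were higher and 4 lower, 2 of 9 VEGF genes higher and 4 lower, and 0 of 5 brain barrier genes higher and 3 lower, beside 13.2% of all genes. In venous-gated against arterial-gated cells, 2 of 9 coat and neck genes were higher and 1 lower, 3 of 13 resident genes higher and 4 lower, 2 of 10 flotillin and clathrin genes higher and 0 lower, 1 of 9 VEGF genes higher and 6 lower, and 2 of 5 brain barrier genes higher and 1 lower, beside 21.4% of all genes. Ehd3 had the highest log2 value of the coat and neck genes there, 3.51 ± 0.15 (adjusted p = 9.77e-23, edgeR).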

How the data were processed

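Per the labels, ileal endothelial cells were sorted and 2 Chromium 3' v3 libraries made; bcl2fastq 2.2, Cell Ranger 3.1.0 and mm10 are named in the submitters' processing notes. The authors deposited UMI counts for each gene and barcode, which are whole and not normalized. Of the barcodes, 978 and 6067 had 500 or more genes and a mitochondrial share of no more than 15%. Scrublet (scanpy 1.11.5, Python 3.11.15) called 4 and 5 of them, which were removed. Such few calls may mean that it did not work. Cells passing both the lymphatic and the blood gate (2 and 94) or both the venous and the arterial gate (28 and 169) were left out, and 55 and 188 fell in no class. UMIs were summed per class and library and the 10 sums fitted with edgeR 4.0.16 (R 4.3.3), quasi-likelihood with robust estimation, scaling by the trimmed mean of M values, a minimum count of 10 in edgeR's filter, and the library as a block, since all classes of a library were taken from that 1 sample. With 4 residual and a median of 36.5 prior degrees of freedom (5 and 48.9 in the fit of cells split within classes), the spread behind the p-values is largely one pooled over genes. P-values were adjusted by Benjamini-Hochberg over all genes, with an FDR of 0.05. SE is the log2 value divided by the square root of F. Splits of lymphatic-gated cells by Gbp2 and Gbp4 and of venous-gated cells by Sele and Icam1 were not tested, since library 1 held 14 and 6 cells in the smaller part and the minimum was 20. DESeq2 1.42.0 was an alternative. Coordinates are from GENCODE vM21. On data simulated for the comparison of the capillary kinds, most changes put in at the largest size were recovered. That size was above the difference of any of the 8 genes there, and recovery of smaller changes is not given here. The simulated libraries differed only in depth and random spread. Library totals give the depth, and intervals cover counting error only. The members, gates, lists and tests were chosen with earlier results of these data known. Named genes were the 8 members, up to 3 passing genes per list and comparison with the largest log2 values and at least 50 CPM, and the 3 nearest genes per member by correlation (5 for Plvap).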

Additional observations from a re-analysis of the deposited data

Results flagged for a closer look

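Cells outside both endothelial gates entered no comparison, yet mural-gated and fibroblast-gated cells of library 2 held some members above the level of leukocyte-gated cells. Values above 0 given for them had more than 3 UMIs and a 95% Poisson interval wholly above that of leukocyte-gated cells of library 2. In 14 mural-gated cells (Rgs5, Pdgfrb and Notch3; median 1843.0 UMIs) Cavin1 stood at 839 CPM, Plvap at 405 CPM, Cavin3 and Ehd2 at 376 CPM each, Cav1 at 289 CPM and Cav2 at 174 CPM, whereas Cavin2 had 0 UMIs. In 11 fibroblast-gated cells (median 4456.0 UMIs) Cavin1 stood at 414 CPM, Ehd2 at 199 CPM and Cav1 and Cavin3 at 149 CPM each. In 47 leukocyte-gated cells no member exceeded 50.2 CPM (Ehd4). Plvap UMIs were found in 21.4% of the 14 mural-gated cells, and the part that endothelial RNA has in these values was not tested.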

How the results depend on the processing

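Each gene kept its class with the highest mean in all alternatives except the stricter cell filter, where 7 of 8 did. DESeq2 called 850 genes between the capillary kinds, 1340 between venous-gated and zero-gated capillary cells (2 members), 609 between arterial-gated and high-gated capillary cells and 1342 between venous-gated and arterial-gated cells, against 1855, 2207, 1371 and 2217 in edgeR. Without the replicate block these counts were 889, 1402, 659 and 1443, with 1 member called in venous-gated against zero-gated cells, 3 in arterial-gated against high-gated cells, 3 in venous-gated against arterial-gated cells and 3 over the splits within classes (9 with the block). Equal cell numbers gave 2935 genes for lymphatic against blood classes (5347 without), 1211 between the capillary kinds, 840 in arterial-gated against high-gated cells and 1453 in venous-gated against arterial-gated cells; fewer cells were summed there. Gate minima raised by 2 UMIs left 4 member calls in the splits. Gates on thinned cells left 3 members in venous-gated against zero-gated cells, and keeping cells that pass 2 gates left 3 in venous-gated against arterial-gated cells. No called value changed sign. Values near 0 did: Ehd2 in venous-gated against zero-gated cells (-0.028 without scaling, -0.074 with equal cells), Cav1 in venous-gated against arterial-gated cells (0.027 with thinned gates), Cav1 in the Esm1 split (-0.0069 without the block, -0.014 and -0.022 with limits of 1000 genes and 10% mitochondrial UMIs and with a limit of 5%, -0.19 with raised gates, -0.029 without mural, fibroblast or leukocyte cells), and in the Fn1 and S100a4 split Cav2 (0.028 with raised gates), Cavin1 (-0.028 with equal cells) and Cavin3 (0.030 with equal cells). Causes were not tested. Splits could not be fitted with thinned gates, where a part of library 1 held no cells. Leaving out a library gives values with no test, and no called value changed sign. Depth limits the sums of library 1, which held 76 lymphatic-gated and 63 venous-gated cells. The alternatives without cells of other types or haemoglobin were chosen after seeing the data.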
